A study of Mus musculus with 3 samples.

Results

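Genes of the autophagy machinery were examined in mouse bone marrow-derived dendritic cells (BMDC), the antigen-presenting cells that grow out of marrow under cytokines. The members were chosen by name alone: every gene whose symbol starts with Atg and a digit, and a set of named kinase, lipid kinase, ATG8, cargo receptor, membrane and mTORC1 genes. Of 45 such genes, 44 had a probe set that names that gene alone, out of 19938 genes in the table, and each took its probe set with the highest mean. The cargo receptor gene Optn was not measured by such a probe set.

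All arrays belong to 1 group. Marrow cells of C57BL/6J mice, at 2000000 per well, were kept for 9 days in 20 ng/ml GM-CSF and 20 ng/ml IL-4, and total RNA was hybridised, with 1 Affymetrix array for each of 3 samples. GM-CSF expands myeloid cells, and IL-4 added to it favours dendritic cells over macrophages. No treatment, genotype or time contrast and no starved or autophagy-blocked sample is named, so there is no group comparison and no test. Whether separate mice or cultures gave the samples is not stated, so the spread between them may be technical.

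Autophagy wraps cytoplasm in a double membrane, the autophagosome, and delivers it to the lysosome. A kinase complex around ULK1 starts the process when mTORC1 activity falls, a lipid kinase marks the membrane, and a conjugation system attaches small ubiquitin-like proteins of the ATG8 family (LC3 and GABARAP) to it, where cargo receptors dock. In dendritic cells the pathway is known for feeding cytosolic and engulfed antigen to MHC class II molecules, and part of it coats phagosomes with LC3. Much of autophagy is set by phosphorylation and by turnover of its proteins, so transcript levels do not measure its activity.

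The values are deposited log2 expression from RMA, which corrects the background of each array, equalises the distributions of the arrays and combines the probes of a probe set. Background was read from 1205 probe sets of olfactory and vomeronasal receptors, sensory genes foreign to marrow: a gene counts as above it if it passed their 95th percentile in all 3 arrays. These limits were 5.54, 5.54 and 5.55 in replicates 1, 2 and 3. Probe sets bind with different strength, so the values rank no gene against another. They are compared here between arrays, with the background limits and, for genes with more than 1 probe set, between those sets. The difference in strength also makes the background call a rough one. Of 10 dendritic cell markers 8 were above background, with Flt3 and Cd209a below it in every array, and Itgax, which encodes CD11c, had 11.91, 11.92 and 11.91 in replicates 1, 2 and 3. Markers of macrophages (6 of 8), T cells (6 of 7) and NK cells (6 of 8) were above it as well, and so were some of B cells (3 of 5), neutrophils (4 of 8), mast cells and basophils (3 of 8), megakaryocytes and erythroid cells (3 of 5) and stroma (3 of 8), against 60.5% of all genes. A stricter limit, the 99th percentile of the same receptors, was passed in every array by 0 B cell and 0 neutrophil markers. It was passed by 8 dendritic cell, 6 macrophage, 4 T cell and 5 NK cell markers. For mast cells and basophils the count was 2, for stroma 2, and for megakaryocytes and erythroid cells 1, against 46.2% of all genes. Cd163 and Vsig4 of the macrophage list and Ncr1 and Klrd1 of the NK cell list were below background in every array. In whole-culture RNA, fewer cells of a type and less RNA per cell cannot be told apart.

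All 44 measured autophagy genes were above background in every array, against 60.5% of all genes, and nearly all stayed close to the same value in the 3 samples. At the 99th percentile of the same receptors, 43 of the 44 were above it in every array, against 46.2% of all genes. The exception was Atg9b. None of the 44 spanned more than 0.3 log2 units between its highest and lowest array, against 5.51% of all genes and 6.41% of the 12067 genes above background. No test stands behind these counts, and the members are genes of a basic cell process, so the shares are given as a description.

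**Figure D1:**
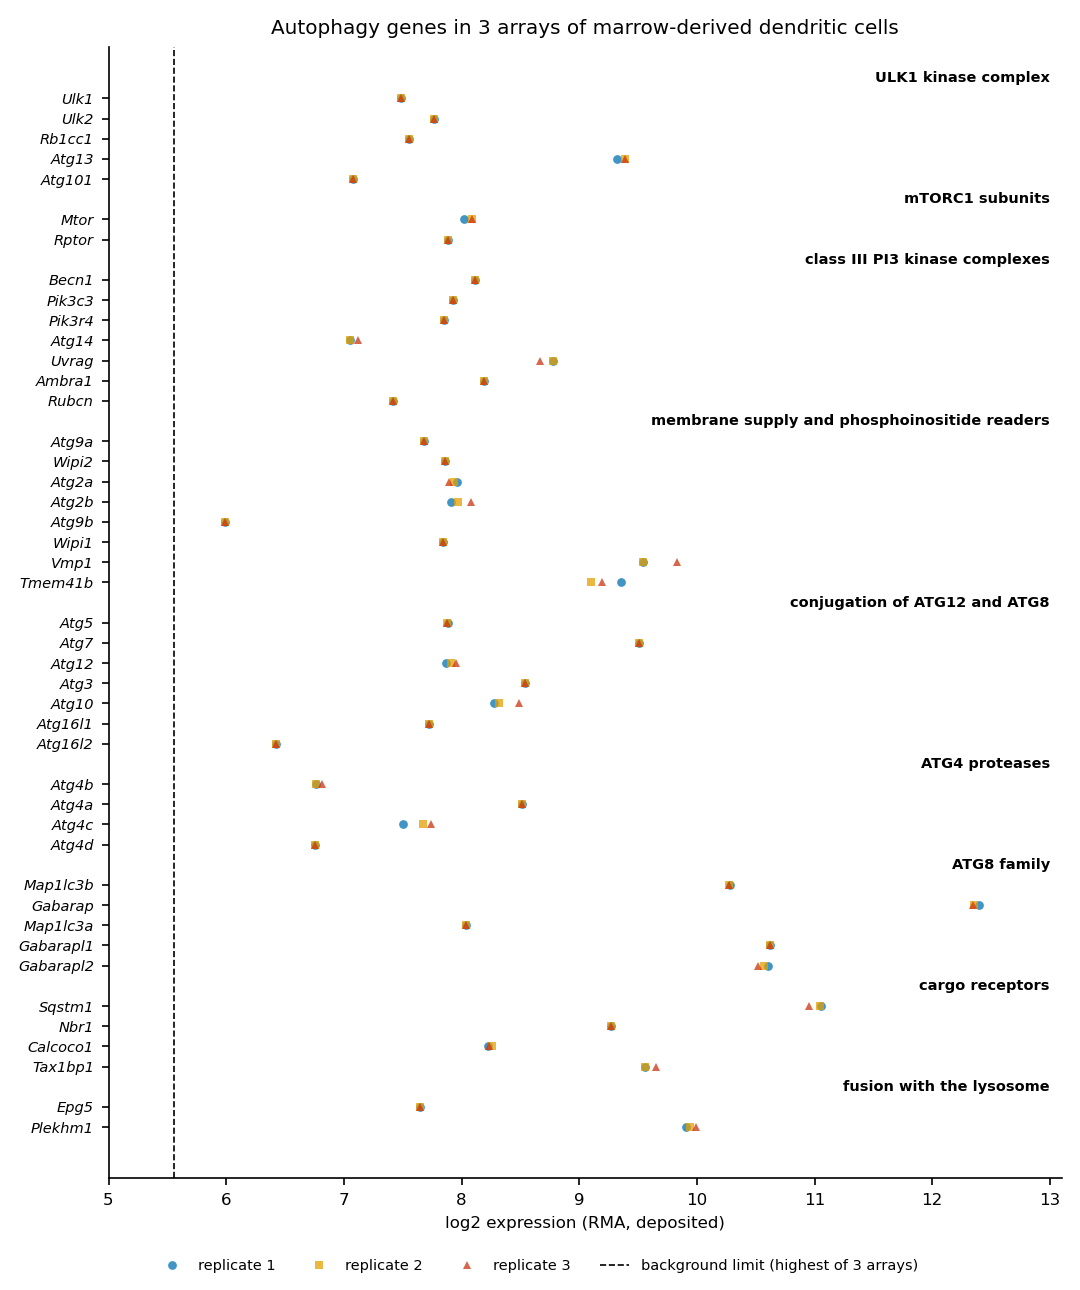
Deposited log2 expression (horizontal axis) of the 44 autophagy genes, grouped by role, with 1 symbol per array and the highest of the 3 background limits (5.55) as a dashed line. All points lie to the right of the line, and the symbols of most genes cover each other.

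Much of this closeness lies in values that were the same to the last digit. In 24 of the 44 genes (54.5%) the 3 deposited values were identical, against 46.5% of all genes above background, in 7 genes 2 of the 3 were, against 28.4%, and in 13 all differed, against 25.1%. An SD of 0 is therefore no measure of precision. Among the 20 genes with values that were not all identical, the median span was 0.084 log2 units, against 0.087 over the genes of that kind above background.

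**Figure D2:**
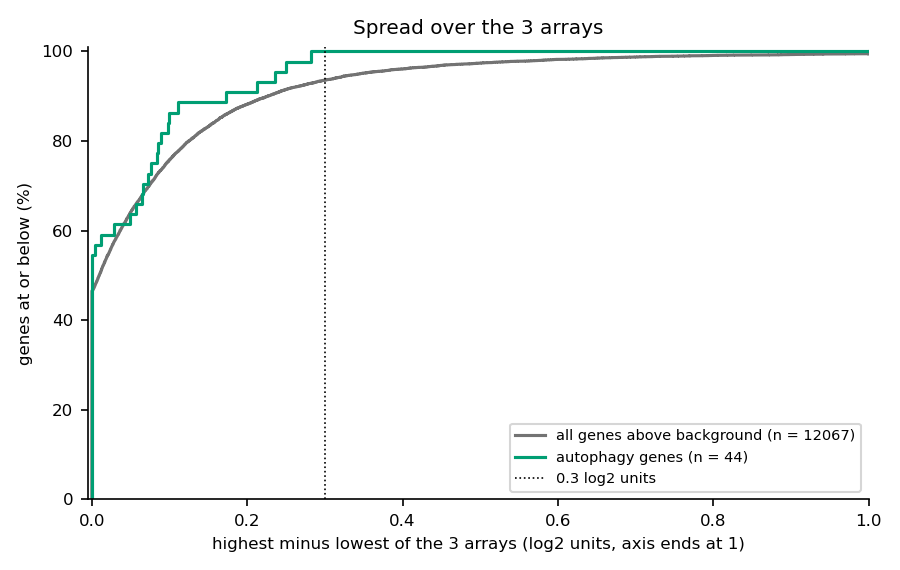
Share of genes (vertical axis, %) whose highest and lowest array differ by no more than the value on the horizontal axis (log2 units), for the 44 autophagy genes and for the 12067 genes above background. Both curves start near the middle of the axis because of identical values, and the autophagy curve reaches 100% before the dotted line at 0.3 while 6.41% of the other curve lies beyond it.

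The kinase complex that starts autophagy was detected whole. Ulk1, the initiating kinase, had 7.49 in each array, and Ulk2, its close relative, had 7.76 in each. Rb1cc1, which encodes the scaffold FIP200, had 7.55 in each array, and Atg101, the partner of ATG13, had 7.08 in each. Atg13, which links the kinase to the scaffold, had 9.32, 9.39 and 9.39 in replicates 1, 2 and 3. It was the only gene of the 5 with a value that differed between arrays, and replicate 1 was the lower.

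Of mTORC1, the nutrient-sensing kinase complex that restrains ULK1 in fed cells, the set holds Mtor and Rptor, and both were detected. Other genes of the complex, Mlst8, Akt1s1 and Deptor, were counted with the regulators of mTORC1 and AMPK further on. Mtor, the kinase itself, had 8.02, 8.08 and 8.09 (SD 0.04, n = 3), lowest in replicate 1. Rptor, the subunit that brings substrates to the kinase, had 7.89 in each array.

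The lipid kinase complexes that mark the forming membrane with phosphatidylinositol 3-phosphate were detected in all 7 of their measured genes. Becn1, which encodes the scaffold Beclin 1, had 8.11 in each array, and Pik3c3, the catalytic subunit VPS34, had 7.93 in each. Its regulatory partner Pik3r4 had 7.85, Ambra1, a Beclin 1 binding protein, had 8.19, and Rubcn, which encodes the inhibitor Rubicon and acts in LC3-associated phagocytosis, had 7.42, each the same in all arrays. Only Atg14 and Uvrag had values that differed between arrays. The other 5 genes held identical deposited values, as did 46.5% of all genes above background, so no division by function is read from this. Atg14, which takes the kinase to the autophagosome, had 7.06, 7.06 and 7.12 in replicates 1, 2 and 3. Uvrag, which takes it to endosomes, had 8.78, 8.78 and 8.66. Replicate 3 was thus the highest for Atg14 and the lowest for Uvrag, with spans of 0.064 and 0.11 log2 units.

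The genes that supply and shape the membrane held the widest differences of the set. Atg9a, a lipid scramblase carried on vesicles to the growing membrane, had 7.68 in each array, and Wipi2, which reads the lipid mark and recruits the conjugation machinery, had 7.86 in each. Its relative Wipi1 had 7.84 in each array. Atg9b, the second ATG9 gene, had 5.99 in each array, 0.44 above the highest background limit and under the stricter one. The lipid transfer gene Atg2a had 7.96, 7.94 and 7.89, while its paralog Atg2b had 7.91, 7.97 and 8.08, so the highest array was replicate 1 for the former and replicate 3 for the latter.

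Vmp1 and Tmem41b encode scramblases of the endoplasmic reticulum that work with ATG9 and ATG2, and they spanned more than the other 42 genes. Both were singled out after their values were seen, as were Atg4c and Atg10 further on. Vmp1 had 9.54, 9.55 and 9.83 in replicates 1, 2 and 3 (SD 0.16, n = 3). Replicate 3 stood apart from the other two, which were nearly equal, and the span of 0.28 is a 1.22-fold ratio. Tmem41b had 9.35, 9.10 and 9.20 (SD 0.13, n = 3), with replicate 1 the highest. The value of Tmem41b depends on the probe set, as described further on.

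**Figure D3:**
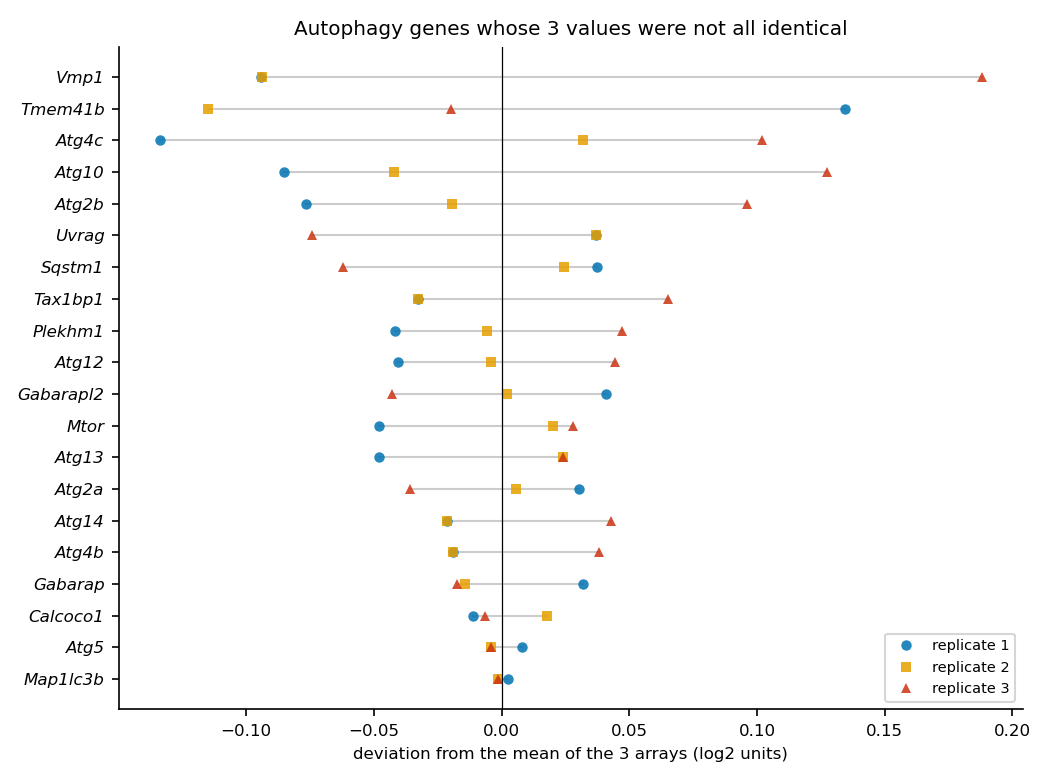
Deviation of each array from the gene's 3-array mean (horizontal axis, log2 units) for the 20 autophagy genes whose values were not all identical, ordered by span, with 1 symbol per array. Vmp1 has the widest span at 0.28, and replicate 3 lies alone at the right end in 10 of the 20 genes, against 36.2% of the genes of that kind above background.

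The enzymes that attach ATG12 and ATG8 were all detected. Atg5, which forms the ligase with ATG12 and has been widely used to switch off autophagy in mice, had 7.88, 7.87 and 7.87 in replicates 1, 2 and 3. Atg7, the activating enzyme of both conjugation routes, had 9.51 in each array. Atg3, which hands ATG8 proteins to the lipid, had 8.54 in each array, and Atg16l1, which places the ligase on the membrane, had 7.73 in each. Its paralog Atg16l2 had 6.43 in each array. Atg12, the ubiquitin-like partner of ATG5, had 7.87, 7.91 and 7.96, and Atg10, the enzyme that joins ATG12 to ATG5, had 8.28, 8.32 and 8.49 (SD 0.11, n = 3). In both of these genes replicate 1 was the lowest and replicate 3 the highest, and in Atg10 the span was 0.21.

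Promoter sequences were taken from RefSeq (build GRCm38.p6), with windows of 250 bases before and 50 after each start. They were available for 37 of the 44 genes, in 44 windows. CACGTG, the E-box core that the MiT/TFE regulators of lysosome and autophagy genes bind within a longer element, was sought on both strands, and so were elements of other factors. It lay in 5 of the 44 windows (11.4%), of Atg3, Atg5, Atg7, Atg14 and Rubcn, against 7.15% of all 32851 windows. Of the 5 genes, 3 encode enzymes or parts of the conjugation system described in the last paragraph. That group holds 7 of the 44 members, but only 37 of the 44 had a window, and how many of the 7 did was not counted. With so few genes the 3 of 5 is only a description. The stretches of 80 bases that hold the core wholly before the start are shown, 5′ to 3′ along the gene, with the core in capitals, because they show where in the promoter it lies. They are chr16:45158700-45158779 (plus strand) for Atg3, chr10:44268259-44268338 (plus strand) for Atg5, chr6:114670929-114671008 (plus strand) for Atg7 and chr16:32868410-32868489 (minus strand) for Rubcn.
Atg3: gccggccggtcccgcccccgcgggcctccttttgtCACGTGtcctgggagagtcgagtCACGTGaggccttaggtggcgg
Atg5: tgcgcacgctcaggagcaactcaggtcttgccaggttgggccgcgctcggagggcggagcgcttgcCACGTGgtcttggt
Atg7: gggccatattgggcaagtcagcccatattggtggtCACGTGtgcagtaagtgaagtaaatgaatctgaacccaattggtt
Rubcn: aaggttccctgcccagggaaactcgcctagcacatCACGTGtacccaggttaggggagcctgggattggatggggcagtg

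Atg3 carried the core at 2 places, and the others shown at 1. TTGCATCA, an ATF4 element, was in 0 of the members' windows and in 0.895% of all, and TGTTTAC, read by FOXO factors, was in 0 of them and in 3.65% of all. TGACNNNGC, the antioxidant response element read by NRF2, was in 7 of the 44 windows (15.9%), of Atg13, Map1lc3b, Tax1bp1, Ulk2 and Vmp1, against 12.4% of all windows, and 3 of the 7 were alternative starts of Vmp1, so that 5 of 37 genes held it. A match of letters is no evidence of binding, and these arrays did not measure binding.

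The ATG4 proteases, which trim ATG8 precursors and later free them from membrane, were detected in all 4 genes. Atg4b, the main processing protease, had 6.76, 6.76 and 6.82 in replicates 1, 2 and 3. Atg4a had 8.51 in each array and Atg4d 6.76 in each. Atg4c had 7.50, 7.67 and 7.74 (SD 0.12, n = 3), with all arrays apart and replicate 1 the lowest. With a span of 0.24 it was among the 4 autophagy genes that spanned more than 0.2 units, with Vmp1, Tmem41b and Atg10. The same span was passed by 11.8% of all genes above background.

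The ATG8 family, whose lipid-bound proteins coat the autophagosome, was above background in all 5 genes with the probe sets used, but for Gabarapl2 the call ended with its other probe set, which lay below background in every array. Map1lc3b, which encodes LC3B, the usual readout of autophagosomes, had 10.28 in each replicate after rounding, with a span of 0.0036. Gabarap had 12.40, 12.35 and 12.35 in replicates 1, 2 and 3 (SD 0.03, n = 3). Gabarapl1 had 10.62 and Map1lc3a 8.04 in each array. Gabarapl2 had 10.61, 10.57 and 10.52. In the 3 genes with differing values, replicate 1 was the highest.

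Cargo receptors, which tie ubiquitinated or organelle cargo to ATG8 proteins, were detected in all 4 measured genes. Sqstm1, which encodes p62, had 11.06, 11.04 and 10.96 in replicates 1, 2 and 3 (SD 0.05, n = 3), lowest in replicate 3. Nbr1, its structural relative, had 9.27 in each array. Tax1bp1, a receptor for ubiquitinated cargo, had 9.56, 9.56 and 9.66, highest in replicate 3. Calcoco1, a receptor for the endoplasmic reticulum, had 8.23, 8.26 and 8.23. Sqstm1 and Tax1bp1 thus differed in replicate 3 in opposite directions, each by about the same span of 0.10.

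Both genes of the last step were detected. Epg5, a tether that brings the autophagosome to the lysosome, had 7.64 in each array. Plekhm1, an adaptor of late endosomes that binds RAB7 and LC3, had 9.90, 9.94 and 9.99 (SD 0.04, n = 3), lowest in replicate 1 and highest in replicate 3.

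For 5 of the 44 genes the table held 2 probe sets, and they did not always give the same picture. For Gabarapl2 the set with the higher mean had 10.61, 10.57 and 10.52, while the other had 4.87, 4.87 and 4.58, below background in every array, a gap of 5.79 log2 units between the means. For Tmem41b the other set had 6.80 in each array, a gap of 2.42, and showed none of the difference between arrays. For Atg4a it had 7.95 in each array, a gap of 0.56, and for Atg2b it had 7.48, 7.56 and 7.57, a gap of 0.45. Both sets of Map1lc3b lay within 0.02 of each other in their means. All these sets were above background except the lower one of Gabarapl2.

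Probe set numbers on this array run along the genome. Of 21695 probe sets naming 1 gene with a chromosome in the RefSeq table (GRCm38.p6), 96.8% named a gene on the chromosome most common among the genes of the 20 nearest probe set numbers. All 39 autophagy genes with 1 probe set did so. Of the 5 genes with 2 sets, the set with the higher mean did so only for Atg2b. Atg4a is on chromosome X, but its higher set was numbered among genes of chromosome 3. Gabarapl2 and Map1lc3b are on chromosome 8, and their higher sets were numbered among genes of chromosomes 5 and 14. Tmem41b is on chromosome 7, and its higher set among genes of chromosome 9. Over all genes with several probe sets, the set used lay on the gene's own chromosome in 72.7%. The values of these 4 genes are therefore uncertain, and whether their higher sets read a copy elsewhere in the genome was not tested. The lower Gabarapl2 set, on the gene's own chromosome, is annotated with 1 transcript accession, against 6 for the higher set. With the sets on the own chromosome, 43 of the 44 genes were above background, Gabarapl2 being the exception.

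**Figure D4:**
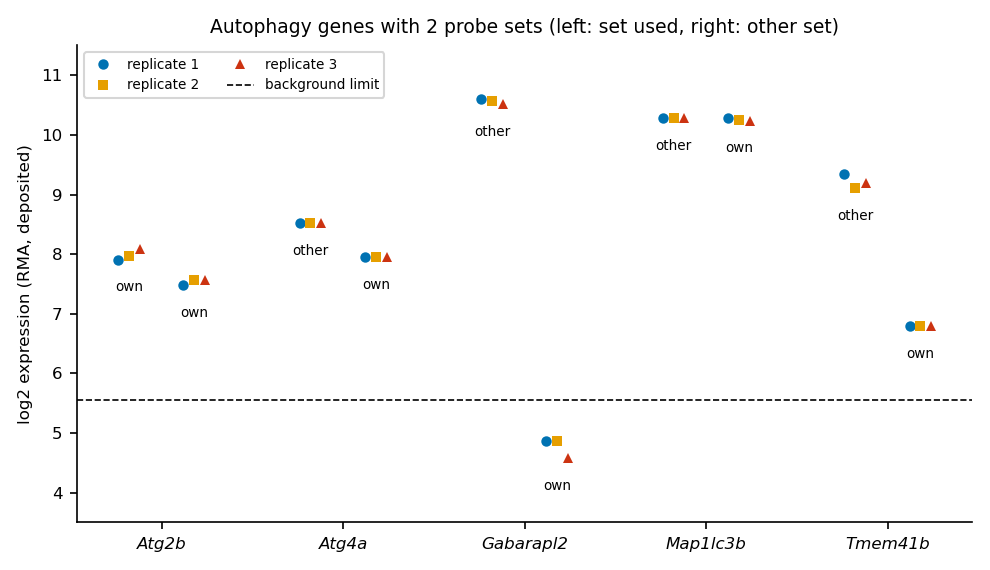
Deposited log2 expression (vertical axis) of both probe sets of the 5 autophagy genes that had 2, with the set of higher mean on the left, 1 symbol per array and the background limit as a dashed line. The words own and other say whether neighbouring probe set numbers lie on the gene's own chromosome, and the own set of Gabarapl2 is the only one under the line.

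Genes that work around the core machinery were detected in nearly every case. Of 65 genes in 5 further lists, 64 were measured, 63 of them were above background in every array, against 60.5% of all genes, and 2 spanned more than 0.3 log2 units, against 5.51% of all genes. All 12 measured receptors for mitochondria and the endoplasmic reticulum were above background. Bnip3, a mitophagy receptor that low oxygen induces, had 7.85, 8.43 and 8.87 in replicates 1, 2 and 3 (SD 0.51, n = 3), the widest span of these lists at 1.02 units. Its relative Bnip3l had 12.10, 12.12 and 12.24, in the same order of arrays but with a span of 0.14. Beside Bnip3, the 7 detected genes of the hypoxia list deviated by -0.19, 0.01 and 0.18 on average, and all 7 were lowest in replicate 1 and highest in replicate 3. Vegfa had 9.07 in replicate 1 and 10.09 in replicate 3, and the glucose transporter gene Slc2a1 had 11.03 and 11.37. Their part in the value of Bnip3 was not tested.

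The regulators of mTORC1 and of AMPK, the energy sensor that activates ULK1, were above background in 19 of 20 cases. The exception was Prkaa2, a catalytic subunit of AMPK, at 4.79 in each array, while the other catalytic subunit gene Prkaa1 had 9.26, 9.14 and 9.14. None of the 20 spanned more than 0.3 units.

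The 13 factors of fusion with the lysosome were all detected, with spans up to 0.15. Stx17, the SNARE of the closed autophagosome, had 7.23, 7.23 and 7.22, and its lysosomal partner Vamp8 had 9.80, 9.76 and 9.80. Rab7, the small GTPase of late endosomes, had 11.29 in each array. The widest of the list was Fyco1, which ties autophagosomes to microtubule motors, at 7.25, 7.37 and 7.40.

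The 15 other autophagy factors were detected too, with spans up to 0.30. Bcl2, which binds Beclin 1 and holds it back, had 10.10, 10.01 and 9.83 in replicates 1, 2 and 3. Wdfy3, a scaffold for protein aggregates, had 8.78, 8.69 and 8.53, and Fundc2 had 8.39, 8.25 and 8.10. In all of these replicate 3 was the lowest. Dapk1, a kinase that phosphorylates Beclin 1, had 8.84, 8.91 and 9.02, the opposite order, and Tbk1, which phosphorylates cargo receptors, had 8.43, 8.46 and 8.54.

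The MiT/TFE transcription factors, which switch on lysosome and autophagy genes, were all detected. All 4 were lowest in replicate 3 alone, against 37.8% of the genes above background with values not all identical. Tfec, a member of the family found in myeloid cells, had 10.72, 10.56 and 10.33 in replicates 1, 2 and 3 (SD 0.20, n = 3), a span of 0.39. The spans of the other 3 were between 0.03 and 0.07, under the median of 0.087 over the genes of that kind above background. Tfeb had 7.92, 7.94 and 7.88, Tfe3 9.16, 9.16 and 9.08, and Mitf 9.57, 9.57 and 9.54. Whether these factors act on the autophagy genes was not tested.

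As a set, the autophagy genes differed by hundredths of a log2 unit between arrays. In replicates 1, 2 and 3 they deviated from the 3-array mean by -0.0075, -0.0048 and 0.012 log2 units on average, a spread of 0.020, beside 0.0077, 0.0019 and -0.0096 over all genes above background, a spread of 0.017. With the arrays recentred on all genes above background the spread was 0.037. The 24 genes with identical values add 0 to each mean, and over the 13 genes with 3 different values the spread was 0.054. Of the 20 genes not identical in the arrays, 9 were lowest in replicate 1 alone, against 24.5% of the genes of that kind above background, 1 in replicate 2 (against 9.11%) and 5 in replicate 3 (against 37.8%), and 5 shared their lowest value between arrays. The highest value lay in replicate 1 alone for 7 of the 20 (against 29.1%), in replicate 2 for 1 (against 10.1%) and in replicate 3 for 10 (against 36.2%). These small counts are not a test of an order between the arrays. Without replicate 3 the spread of the mean deviation was 0.0027.

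Other programs differed far more between the same arrays. The 7 cell cycle genes spread over 0.96 log2 units, all lowest in replicate 3, the 6 detected T cell markers over 0.71, the 6 NK cell markers over 0.94, the 3 mast cell and basophil markers over 1.01 and the 8 ATF4 targets over 0.37, all with replicate 3 the lowest on average. Some stromal markers set replicate 1 apart: Dcn, a matrix proteoglycan, had 8.12, 5.36 and 5.41, and Lox, Bgn and Sparc were likewise highest there. The rest of the list differed less. Col1a1 had 6.94, 6.69 and 6.76, and Col1a2 6.53, 6.36 and 6.36. Pdgfrb had 5.55, 5.38 and 5.38, and Col3a1 6.10 in each array. Dcn, Lox, Bgn, Sparc and Pdgfrb were not above background in every array, so the stromal spread of 0.14 leaves them out. The neutrophil spread of 0.14 likewise leaves out Elane, below background in every array, and Lcn2, Ly6g and Retnlg, each above it in 2 arrays. Lcn2 had 7.98, 6.69 and 5.12 in replicates 1, 2 and 3, Ly6g 6.73, 6.80 and 4.86, and Retnlg 7.35, 7.11 and 5.55. Of the cell cycle genes, Mki67, a proliferation antigen, had 8.50 in replicate 1 and 7.38 in replicate 3, and Top2a, a mitotic topoisomerase, had 8.06 in replicate 1 and 6.77 in replicate 3. Cd3e, of the T cell receptor complex, had 9.09, 8.79 and 8.15 in replicates 1, 2 and 3, and Cd3g had 8.65, 8.22 and 7.44. The granzyme gene Gzmb had 10.89 in replicate 1 and 9.69 in replicate 3, and Gzma 10.89 and 9.68. ATF4 is a stress factor known to induce several autophagy genes, and of its targets Asns had 8.88, 8.17 and 7.45 while Trib3 had 6.83, 6.59 and 6.59. Of the 8 targets, 5 were lowest in replicate 3 alone, and the median span was 0.18. Ddit3 had 7.72 in each array, and Slc7a11 was lowest in replicate 1, at 10.58, 10.60 and 10.60. The 6 detected housekeeping genes spread over 0.018, with replicate 1 the highest on average, though only 1 of the 6 was highest there alone. The autophagy genes were highest in replicate 3 on average, but with the median their spread was 0.000. Both spreads of the means were close to the 0.017 over all genes above background, so no contrast of direction is drawn. Of the housekeeping genes, Actb had 13.18, 13.19 and 13.18 in replicates 1, 2 and 3 and Ppia 11.76, 11.72 and 11.64. Of the 20 autophagy genes with values not all identical, 10 were highest in replicate 3 alone and 5 lowest there alone. Sqstm1 and Uvrag, with spans of 0.10 and 0.11, were among the latter. The part of lymphocyte and dividing cells in these differences was not tested.

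**Figure D5:**
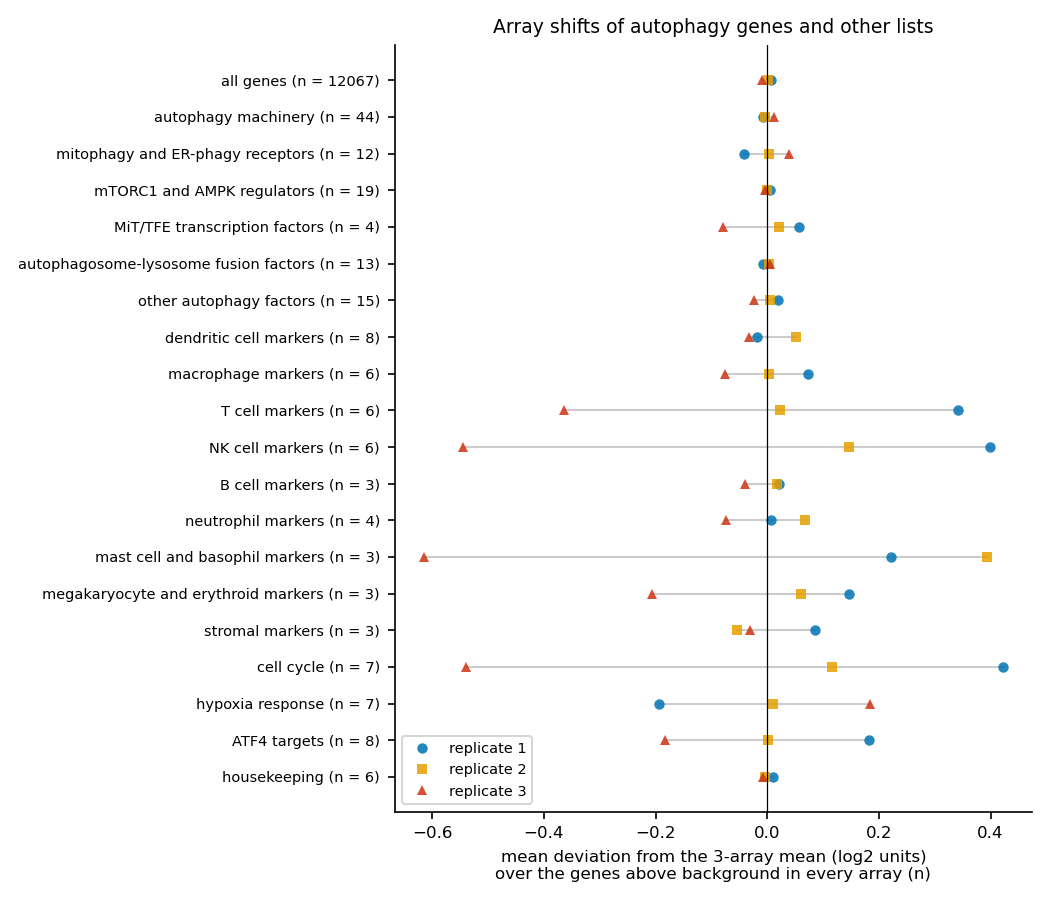
How far each array lay from the 3-array mean, averaged (horizontal axis, log2 units) over the genes above background (n) of the autophagy set, related pathway lists, cell type markers and general programs, with 1 symbol per array. The autophagy set spreads over 0.020 units, while the 3 detected mast cell and basophil markers spread over 1.01, cell cycle genes over 0.96 and NK cell markers over 0.94.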

How the data were processed

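Total RNA of 3 BMDC samples of 1 group was measured on Affymetrix arrays. The authors deposited log2 values from RMA, as the submitters' processing notes state; its software and version and the genome build are not given in the sources used here. Scale and normalization were judged from the values and the name of the method. Of 35556 probe sets, 21789 were annotated with a single gene, 1621 with several genes (not used), and 12146 had no entry. Of a gene's probe sets the one of highest mean was used. Entrez identifiers of all 44 members were matched to RefSeq. No test was run, since there is 1 group, and the number of arrays limits the precision. Values per array were to be given for members spanning more than 0.3 log2 units or under background and for the first 2 measured genes of each of 9 role groups; the other members were chosen for naming with their values in view. Of related pathway lists, genes past that span or under background were to be named, and of marker and program lists the first 2. The first 2 are given here only for some of the lists set beside a result, and not for the mast cell and basophil markers. All other pathway, marker and program genes named were picked with their values known. The members and lists were chosen with earlier results of these data known. Python (version 3.11.15) and pandas (version 2.3.3) were used, and the counting functions were tested on simulated data. Those data held no identical values, so the counts of identical and shared values were not covered. Alternatives covered the background limit, the call, the probe set, the span, centring and each array left out.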

Additional observations from a re-analysis of the deposited data

How the results depend on the processing

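The count of autophagy genes above background was 44, or 43 with the stricter limit, with the lower probe set or with the set on the gene's own chromosome, the last chosen after seeing the data. It was 44 in the other alternatives run. The count spanning more than 0.3 log2 units was 0 in all alternatives but that with the threshold at 0.2, where it was 4. The spread of the mean deviation, 0.020, was 0.000 with the median, 0.037 with the arrays recentred on all genes above background, 0.054 over the 13 genes with 3 different values, which leaves out the identical ones, and 0.0027 to 0.020 with 1 array left out. The count lowest in replicate 3, 5 of 20, ranged from 6 to 8 with replicate 1 or 2 left out and was 4 or 5 otherwise. No paired analysis was possible because there is only 1 group. No array has a known depth, and an SD near 0 reflects identical deposited values.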
